A study of Mus musculus with 3 samples.

Results

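The centromere-proximal part of the mouse autosomes was examined for H3K4me3, the trimethylation of histone H3 lysine 4, in whole adult testis of (B6xCAST)F1 males that carry 2 different Prdm9 alleles. The region was the first 10 Mb of known sequence on each of 18 autosomes, all but chromosome 17, from position 3000000 to 13000000 of mm10. Mouse chromosomes carry the centromere at one end, which is the end where the numbering starts, and the assembly holds unknown bases up to the first of these positions. Members were all narrow H3K4me3 peaks with a centre in this interval. There were 5929 of them among 101978 narrow peaks in all. Of the members, 3538 had their centre in none of the regions that the authors list as PRDM9-independent. They are called PRDM9-dependent. The other 2391 had their centre in such a region and are called PRDM9-independent. The dependent share over all narrow peaks of the 18 autosomes was 61.5%. The unit of comparison was the autosome, so each test asked whether the difference between the first 10 Mb and the rest of the same autosome was larger than its spread across the 18 autosomes.

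The animals were (C57BL/6J x CAST/Eij)F1 hybrids with the Prdm9 genotype Humanized/CAST. The Prdm9 Hum allele came from the C57BL/6J side and carries the human zinc fingers in place of the mouse ones, while Prdm9 Cast is the allele of the CAST strain, so both alleles were present in every animal. Both ChIP libraries and the input library, which was sequenced without antibody, had this genotype, and no library of another genotype was among them. The list of PRDM9-independent regions, which sets the class of each peak, came from other mice. Per the study's methods it holds the peak regions that earlier mice with different Prdm9 alleles had in common. Whole testis holds spermatocytes beside other germ cells and somatic cells, so a peak cannot be placed in one cell type, and more cells with a mark cannot be told apart from more of the mark per cell. Peaks had been called on both ChIP libraries together, and the spread between these may be technical, since the series' design text gives each testis of a single male as a replicate while the study's methods give littermates. At the members, the fragments that covered peak centres summed to 1095852 and 1187413 for ChIP replicates 1 and 2, and to 131523 for the input library.

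PRDM9 is a meiotic methyltransferase that binds DNA through its zinc fingers and places H3K4me3 on the nucleosomes around the bound site, where the double-strand breaks that start recombination are then made. H3K4me3 also marks the promoters of active genes without any need for PRDM9, and such promoters are among the PRDM9-independent peaks. Next to the centromere lie long arrays of satellite repeats, and crossing over is generally sparse close to them, which makes the adjoining sequence of interest for the distribution of PRDM9 sites.

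To show what a strong member looks like, 5 of the PRDM9-dependent peaks with the highest enrichment in the region are given as the 300 reference bases around their centres, all with 3 or more input fragments and with both ChIP replicates above the input. The bases are those of GRCm38, which is mm10, on the forward strand, and the C57BL/6J reference does not show what the CAST chromosome carries. Capitals mark the fixed letters of a match to the Cast consensus GNNTNGNNNTNTGNC on either strand. No window among these held a match to the Hum consensus TNNNNNNNCCNCCCNNNCCNC, and 1 of them matched the Cast consensus. Both consensus strings are the letters at a share of 0.7 or more in the study's binding matrices of the 2 alleles.
chr10:11807774-11808073: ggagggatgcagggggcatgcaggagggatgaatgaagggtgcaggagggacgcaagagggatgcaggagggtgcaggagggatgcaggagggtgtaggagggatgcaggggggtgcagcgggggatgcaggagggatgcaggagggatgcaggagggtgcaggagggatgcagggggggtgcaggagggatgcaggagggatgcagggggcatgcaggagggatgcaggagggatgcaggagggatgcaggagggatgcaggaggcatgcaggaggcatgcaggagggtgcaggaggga
chr5:7098560-7098859: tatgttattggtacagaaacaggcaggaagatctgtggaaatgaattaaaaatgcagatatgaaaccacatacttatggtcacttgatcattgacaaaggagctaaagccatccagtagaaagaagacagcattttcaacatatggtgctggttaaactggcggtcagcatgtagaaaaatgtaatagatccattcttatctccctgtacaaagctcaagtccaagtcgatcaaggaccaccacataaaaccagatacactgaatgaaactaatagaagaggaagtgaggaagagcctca
chr12:9581504-9581803: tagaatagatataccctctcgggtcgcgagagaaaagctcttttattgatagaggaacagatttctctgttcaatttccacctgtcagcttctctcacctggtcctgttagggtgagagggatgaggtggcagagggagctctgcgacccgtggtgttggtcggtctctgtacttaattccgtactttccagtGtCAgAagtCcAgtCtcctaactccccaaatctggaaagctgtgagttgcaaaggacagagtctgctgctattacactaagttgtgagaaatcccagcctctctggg
chr12:8590009-8590308: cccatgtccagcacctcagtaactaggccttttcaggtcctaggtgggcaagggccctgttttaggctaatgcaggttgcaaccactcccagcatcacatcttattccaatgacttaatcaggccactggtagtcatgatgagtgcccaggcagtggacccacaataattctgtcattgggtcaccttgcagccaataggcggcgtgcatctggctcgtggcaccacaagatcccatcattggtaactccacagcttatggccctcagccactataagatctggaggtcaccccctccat
chr6:3183137-3183436: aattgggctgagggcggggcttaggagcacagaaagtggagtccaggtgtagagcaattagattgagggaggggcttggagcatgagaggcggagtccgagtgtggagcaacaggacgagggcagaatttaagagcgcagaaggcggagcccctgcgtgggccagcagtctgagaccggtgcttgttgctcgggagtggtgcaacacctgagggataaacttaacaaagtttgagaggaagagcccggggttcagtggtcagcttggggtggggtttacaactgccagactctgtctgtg

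The peak on chromosome 10, at position 11807924, was covered by 508 and 435 fragments in ChIP replicates 1 and 2, and by 12 input fragments. Its enrichment, the authors' estimate of signal in excess of local background in units of that background, with 0 for no excess, was 36.9. It lay between genes, 465 kb from the nearest protein-coding start, that of Epm2a, and its sequence is an array of short units built on a repeated ggagggatgca-like pattern. The peak on chromosome 5, at position 7098710, lay in an intron of Zfp804b and had 77, 126 and 3 fragments in the same order, with an enrichment of 31.7. Repeat-masked sequence covered 89.0% of its window.

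The first peak on chromosome 12 lay 11.5 kb from the start of Osr1, a developmental transcription factor, and just past the gene's annotated end at position 9581500. The second lay in an intron of the transporter gene Slc7a15. The first, at position 9581654, had 91, 139 and 4 fragments and an enrichment of 26.9, and the second, at position 8590159, had 106, 116 and 4 fragments and an enrichment of 26.0. The first stood 1.75 kb from a PRDM9-independent region and inside a broad peak that overlapped it. The peak on chromosome 6, at position 3183287, was covered far more deeply, with 1421, 1844 and 60 fragments and an enrichment of 25.5, and lay 0.814 kb from a PRDM9-independent region. All 5 had been picked for being above the input in both ChIP replicates, and the 2 with the deepest coverage were those on chromosomes 10 and 6.

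The same ranking also showed where the class label is least certain. Its first 2 peaks, with enrichments of 87.2 and 54.3, lay 0.083 kb from the start of 1810049J17Rik, within coding sequence that overlaps Golph3, and 0.214 kb from the start of Rrs1, a ribosome biogenesis gene, within its coding sequence. They had 4156 and 4002 ChIP fragments against 44 in the input, and 2639 and 2681 against 46. They were 0.185 and 0.222 kb from a PRDM9-independent region and inside a broad peak that overlapped it. Such positions held 193 of the 3538 dependent members, or 5.46%, against 6.73% in the rest of the autosomes. Without regard to input depth, the highest enrichment, 88.9, belonged to a peak on chromosome 7 at position 3603608 with 98 and 91 ChIP fragments and 1 input fragment, and the third highest, 79.0, to a peak on chromosome 6 at position 7528337 with 38 and 46 ChIP fragments and 0 in the input. An enrichment over so few input fragments is imprecise.

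The remaining member of the leading 8, on chromosome 8 at position 6724527, had 86 and 88 ChIP fragments against 3 in the input, an enrichment of 27.2, and the nearest protein-coding start, that of Slc10a2, was 1619 kb away.

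In the first 10 Mb, PRDM9-dependent peaks were sparser than in the rest of the same autosome. Their density per Mb of known sequence was lowest on chromosome 9, at 10.7, and highest on chromosome 19, at 30.2, with a mean of 19.8 ± 5.10 (SD, n = 18 autosomes). In the rest it was 26.0 ± 2.75 per Mb. The ratio of the 2 densities was below 1 on 17 of 18 autosomes, the exception being chromosome 16 at 1.06, and its mean corresponded to 0.738 times the density of the rest (log2 ratio −0.44 ± 0.37, SD, n = 18). An exact sign-flip permutation test over autosomes gave p = 4.58e-05, and 0.000206 after Benjamini-Hochberg adjustment over the 9 tests made. These p-values rest on the spread between autosomes of one pair of libraries, not between animals.

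**Figure D1:**
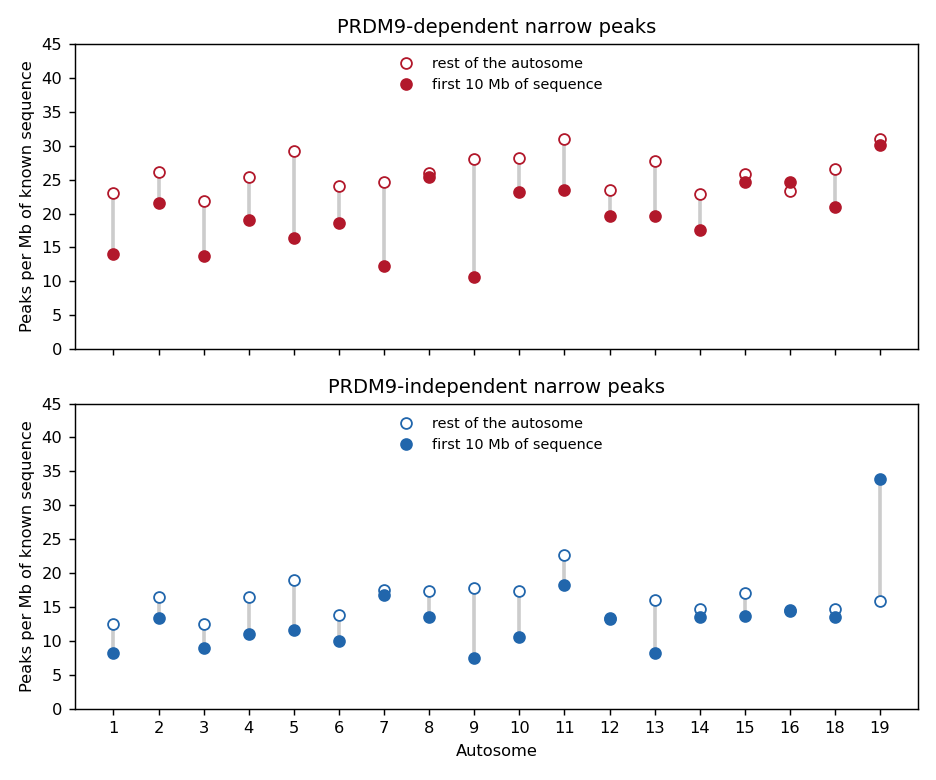
Narrow peaks per Mb of known sequence on each of 18 autosomes, in the first 10 Mb (filled) and in the rest of the autosome (open), for PRDM9-dependent (top) and PRDM9-independent peaks (bottom). The filled point is the lower one on 17 autosomes in the upper panel and on 16 in the lower one, where chromosome 19 stands far above.

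The autosomes were far from alike. Chromosome 9 held 107 dependent members, 3.33% of its dependent peaks (95% exact binomial interval 2.73 to 4.01%, counting error only), in 8.25% of its known sequence, which is a density ratio of 0.383. Chromosome 7 followed, with 122 members and a ratio of 0.501, and chromosome 5 with 164 members and a ratio of 0.561. At the other end, chromosomes 8, 15, 16 and 19 had ratios of 0.976, 0.956, 1.06 and 0.972. For chromosome 16, the interval of its share, 9.78 to 12.4%, held the share of sequence, 10.5%. The median ratio over the 18 autosomes was 0.771.

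The lower density also held when the region was set beside the opposite end of the chromosome. In the last 10 Mb, next to the distal telomere, dependent peaks stood at 34.6 ± 8.49 per Mb, and the proximal density was lower on 18 of 18 autosomes, 0.569 times that of the distal end (log2 ratio −0.81 ± 0.43). The exact sign-flip p was 7.63e-06, the smallest that 18 autosomes can give, and 6.87e-05 after adjustment. The distal end also differed in GC content, 44.3 ± 2.71% against 41.3 ± 1.75%, and in protein-coding starts, 11.2 ± 6.09 against 7.94 ± 7.52 per Mb. Independent peaks were denser there too, at 21.7 ± 8.02 against 13.4 ± 5.90 per Mb. The comparison with the distal end was not made at matched GC. That end was also denser than the rest as a whole, which stood at 26.0 ± 2.75 dependent peaks per Mb. With the last 10 Mb left out of the rest, the log2 ratio of dependent density was −0.39 (exact sign-flip p = 0.000412), against −0.44 with it. Among consecutive windows of 10 Mb, of which an autosome had between 6 and 19, the proximal one was the sparsest on 1 autosome, chromosome 9, and was in the sparser part of the ranking on 15. On the other 17 autosomes, at least one window elsewhere was sparser.

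By distance, the dependent density showed no steady rise away from the centromere. In steps of 1 Mb, the mean over autosomes, relative to each autosome's rest, was 0.775 ± 0.264 in the first step, 0.901 ± 0.433 in the second, 0.625 ± 0.289 in the fifth and 0.772 ± 0.382 in the tenth. It was still 0.626 ± 0.301 in the thirteenth step, beyond the region, and 0.799 ± 0.482 in the twentieth. All these means were below 1, and their SDs overlapped. The density was below that of the rest on 14 of 18 autosomes in the first step but on 8 in the second. It was so on 15 in the fifth, 9 in the sixth and 14 in the tenth. With a window of 20 Mb the ratio of the whole window was −0.50 on the log2 scale, and with one of 5 Mb it was −0.42, so the lower density was not limited to the first 10 Mb.

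**Figure D2:**
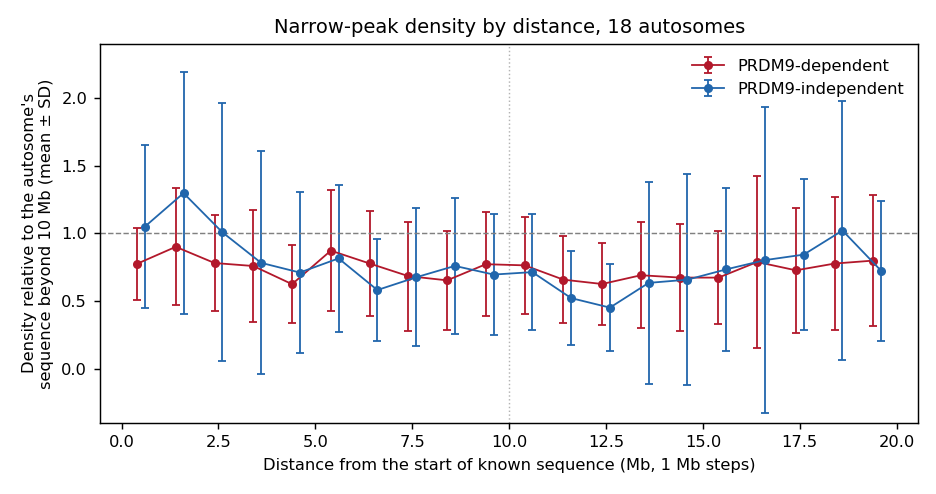
Density of narrow peaks in 1 Mb steps from the start of known sequence, relative to the sequence of the same autosome beyond the first 10 Mb, as mean ± SD over 18 autosomes (dashed line, equal density; dotted line, end of the region). PRDM9-dependent peaks lie below 1 in every step, while PRDM9-independent peaks start at 1.05, reach 1.30 in the second step and fall to 0.451 in the thirteenth.

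Within the region, the 180 windows of 1 Mb held a median of 18.5 dependent peaks. The richest was on chromosome 11 between positions 4000001 and 5000000, with 52 dependent and 32 independent peaks. It was followed by chromosome 19 between 10000001 and 11000000, with 50 and 29, and between 5000001 and 6000000, with 40 and 71. These 3 windows held 23, 33 and 53 protein-coding starts and had GC contents of 46.5, 48.7 and 49.4%. The 2 windows without a dependent peak were on chromosome 3, between 4000001 and 5000000, where 84.3% of sampled 51-base words occur once in the genome, and on chromosome 7, between 9000001 and 10000000, where only 5.58% do. The first of these held 5 independent peaks and the second 0.

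PRDM9-independent peaks were also sparser in the region. Their density was 13.4 ± 5.90 per Mb in the first 10 Mb and 16.1 ± 2.49 in the rest, lower on 16 of 18 autosomes. The mean ratio was 0.785 (log2 ratio −0.35 ± 0.49, exact sign-flip p = 0.00815, adjusted 0.0147). Chromosome 19 went the other way, with 33.8 independent peaks per Mb against 15.9, and holds 331 protein-coding starts in these 10 Mb, or 33.5 per Mb against 8.03 in its rest. The lowest ratio was again that of chromosome 9, at 0.420, with 7.50 against 17.9 per Mb. This call was lost with a window of 5 Mb, where the log2 ratio was −0.21 (exact sign-flip p = 0.205).

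The 2 classes were not shown to differ in how sparse they were. The difference of their log2 ratios, dependent minus independent, was −0.09 ± 0.41, with 10 autosomes below 0 and 8 above (exact sign-flip p = 0.394, adjusted 0.506). Chromosomes 19 and 7 had the most negative differences, −1.13 and −0.94. Chromosome 13 had the highest, 0.47, with its independent peaks at 0.511 and its dependent ones at 0.706 times the density of its rest.

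Base composition moved with both densities. GC content was 41.3 ± 1.75% in the first 10 Mb and 42.0 ± 0.895% in the rest, lower on 12 of 18 autosomes, by as much as from 43.0 to 38.9% on chromosome 9. Over the 18 autosomes, the difference in GC and the log2 ratio of dependent density had Pearson's r = 0.812 and Spearman's rho = 0.794, and r = 0.793 without the 2 autosomes farthest from the median GC difference, 16 and 19. For the independent ratio, r was 0.762 and rho 0.645, and 0.662 and 0.497 without those 2. Other contrasts between region and rest moved with the densities too. That in protein-coding starts per Mb had r = 0.876 and rho = 0.748 with the independent ratio, above the GC values. With the dependent ratio it had r = 0.386 and rho = 0.488. The contrast in the share of words that occur once had r = 0.366 and rho = 0.676 with the dependent ratio. With the independent ratio it had r = −0.129 and rho = 0.127. The points share their libraries and depth, and these values are a description.

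When the expected count was taken from 100 kb windows of the same GC in the rest of the same autosome, the dependent peaks were still fewer, at 0.824 times the expected count (log2 ratio −0.28 ± 0.24, exact sign-flip p = 0.000267), lower on 15 of 18 autosomes. The independent peaks were at 0.974 times the expected count (exact sign-flip p = 0.696). The difference between the classes then became −0.24 ± 0.43 (exact sign-flip p = 0.0256). This calculation was added after the data had been seen. Under it chromosome 9 moved from 0.383 to 0.672, chromosome 5 from 0.561 to 1.10, and chromosome 16 from 1.06 to 0.701.

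**Figure D3:**
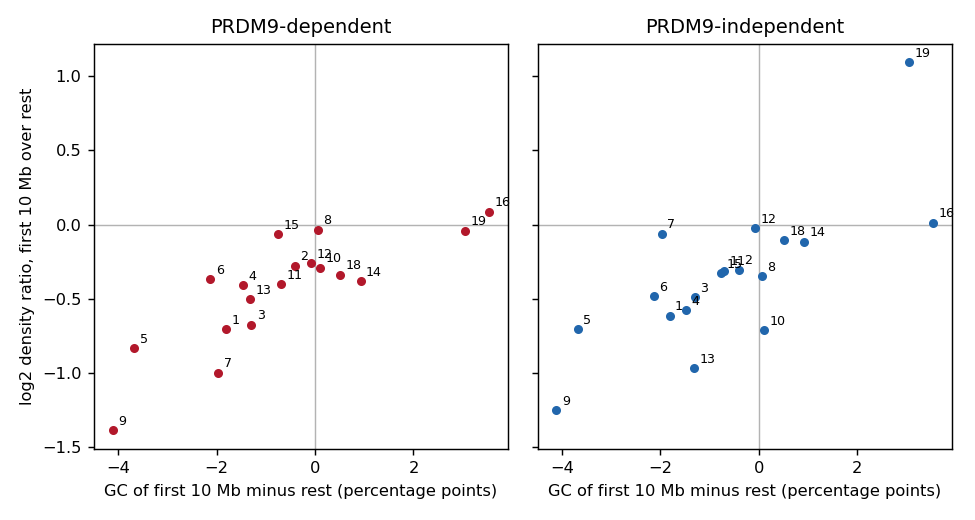
log2 ratio of narrow-peak density, first 10 Mb over rest, against the difference in GC content in percentage points, one numbered point per autosome, for PRDM9-dependent (left) and PRDM9-independent peaks (right). Chromosome 9 lies lowest at the left in both panels, and chromosomes 16 and 19 lie at the right.

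Repeated sequence moved with the region as well. Repeat-masked bases made up 38.9 ± 6.16% of the first 10 Mb and 32.8 ± 1.42% of the rest, higher on 17 of 18 autosomes. Of sampled 51-base words, 83.9 ± 11.2% occurred once in the genome, against 90.2 ± 1.92% in the rest, with 53.4% on chromosome 14 and 55.4% on chromosome 7 as the lowest. Reads from sequence that occurs more than once cannot be placed with certainty. Per Mb of words that occur once, the log2 ratio of dependent density was −0.32 (exact sign-flip p = 0.000938), and that of independent density −0.23 (p = 0.101), so the second was no longer past the threshold of 0.05. Both calculations with such words were also added after the data had been seen. With GC and such words together, dependent peaks were at 0.879 times the expected count (exact sign-flip p = 0.00288) and independent ones at 1.03 times (p = 0.682).

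Chromosomes 7 and 14 show 2 forms of such sequence. On chromosome 7, between 7 and 12 Mb, 34.2% of words occurred once and 22 dependent and 15 independent peaks were found, or 4.44 and 3.03 per Mb, whereas between 3 and 7 Mb, with 76.0% of such words, there were 86 and 131, or 21.8 and 33.3 per Mb. On chromosome 14, between 3 and 8 Mb, only 14.2% of words occurred once, yet 104 dependent peaks were found, or 20.8 per Mb, against 72 between 8 and 13 Mb. Those 104 peaks had a median of 9 and 12 ChIP fragments and 1 input fragment, and 22.1% of them had none in the input. The 72 had medians of 17.5, 18 and 5. A word that occurs once lay at the centre of 66.3% of the 104 and 98.6% of the 72. Independent peaks numbered 102 and 34 in the same 2 stretches, and protein-coding starts 103 and 16.

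The peaks that were present in the region were not shown to differ in enrichment from those elsewhere. The median enrichment of dependent peaks was 2.79 ± 0.687 in the first 10 Mb and 2.75 ± 0.103 in the rest, as mean ± SD over autosomes. The difference of the median log2 enrichment was −0.01 ± 0.26, with 13 autosomes below 0 and 5 above (exact sign-flip p = 0.938). Chromosome 14 decided much of this value, at 5.40 against 2.88, and without it the difference was −0.06 (exact sign-flip p = 0.0474). With 3 or more input fragments at every peak it was −0.08 (exact sign-flip p = 0.0406). The lower and upper quartiles of enrichment among the dependent members were 1.55 and 5.03.

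In counts, a dependent member was covered by a median of 14 and 17 fragments in ChIP replicates 1 and 2 and by 6 input fragments, against 15, 18 and 6 in the rest. Of the 3538, 3062 (86.5%) were above the input in both replicates, against 88.1% over all dependent peaks of the 18 autosomes. Without adjustment for library size this count describes coverage only. The authors' p-value was under 1e-10 for 67.5% of the dependent members, against 69.6% over all such peaks. Across the members, log2 coverage in the 2 ChIP replicates had a Pearson correlation of 0.881, and across those of the rest 0.871. By autosome, the difference in log2 input coverage was −0.14 ± 0.27 (exact sign-flip p = 0.0508), and chromosomes 14 and 5 had the largest differences, with medians of 3 and 4 fragments against 6 and 7 in their rest.

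**Figure D4:**
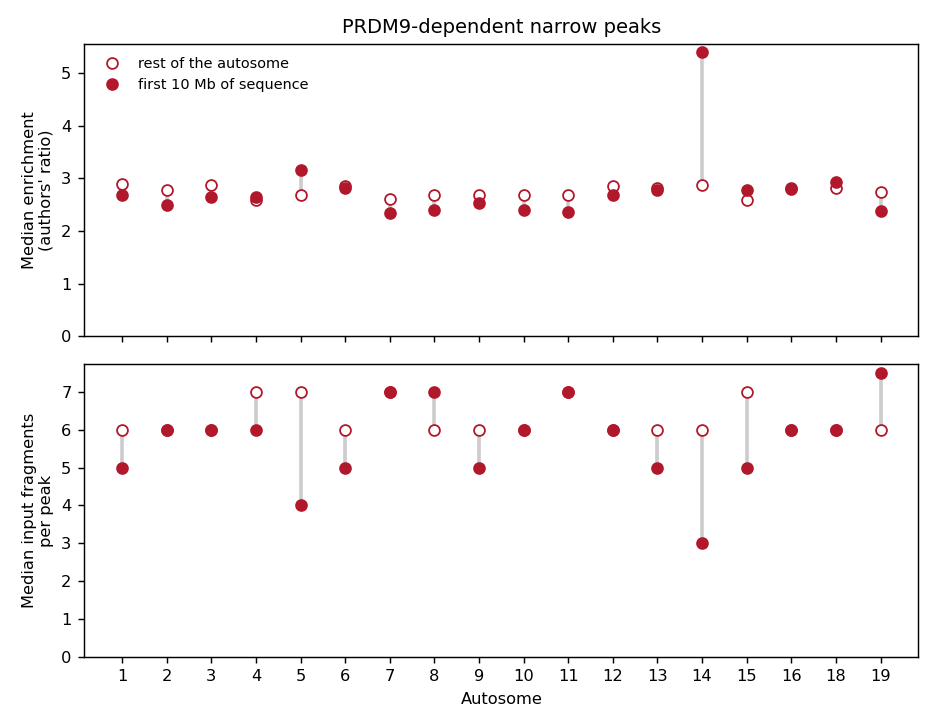
Median enrichment (top) and median input fragments per peak (bottom) of PRDM9-dependent narrow peaks on each of 18 autosomes, in the first 10 Mb (filled) and in the rest (open). Chromosome 14 has the highest enrichment in the region, 5.40, and the lowest input, 3 fragments.

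PRDM9-independent peaks of the region had a median enrichment of 12.2 ± 3.83 over autosomes, and those of the rest 11.6 ± 0.948. The difference in log2 was 0.01 ± 0.40 (exact sign-flip p = 0.905). Chromosome 19 was highest, at 24.4 against 12.2, and chromosome 9 lowest, at 6.36 against 12.1. The broad peaks, which the authors called in bins and deposited as positions, were sparser as well. Broad peaks that overlapped no PRDM9-independent region numbered 3671 in the region, 0.758 times the density of the rest (log2 ratio −0.40 ± 0.40, exact sign-flip p = 9.16e-05, adjusted 0.000275), with 3 autosomes above 1. They were also narrower, with a pooled median width of 600 bp against 700 bp. The median width was smaller on 12 autosomes and equal on 6 (log2 difference −0.17 ± 0.15, exact sign-flip p = 0.000488, adjusted 0.0011), where widths come in steps of 100 bp.

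A small set of members had very deep input coverage. Input coverage above the 99th percentile of narrow peaks, 34 fragments, was found at 74 dependent members (2.09%), against 0.258% of dependent peaks in the rest, and 60 of the 74 had an enrichment below 1. The 74 also included the strong peak on chromosome 6 at position 3183287 and those at 1810049J17Rik and Rrs1, with 60, 44 and 46 input fragments. On chromosome 9, 15 such peaks lay between positions 3000314 and 3037918. Their input coverage ran from 659 to 10212 fragments and their enrichment from 0.204 to 0.392, an excess smaller than the background itself. Chromosome 4 held 14 between 3050181 and 3090316, and chromosome 11 held 11 between 3101716 and 3199418. An enrichment below 1 was found at 307 dependent members in all (8.68%), against 7.79% over all dependent peaks. Leaving out the peaks of very high input changed the log2 ratio of dependent density from −0.44 to −0.47.

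**Figure D5:**
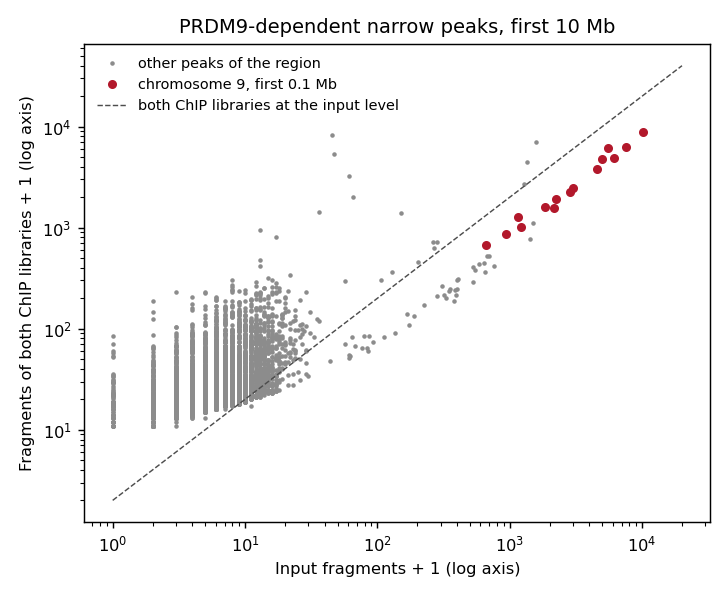
Fragments of both ChIP libraries together against input fragments at each of the 3538 PRDM9-dependent members, both plus 1 and on log axes. The dashed line marks ChIP coverage at the input level in both libraries, without adjustment for depth, and the 15 peaks at the start of chromosome 9 (red) all lie under it.

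By annotation, of the dependent members, 10.4% had their centre in an exon, 45.4% in an intron and 44.1% between genes, against 9.98, 46.1 and 44.0% in the rest. A protein-coding start lay within 1 kb of 2.12% of them, and within 1 kb of 35.8% of the independent members, against 1.81 and 32.4% in the rest. The median distance to such a start was 50.6 kb for dependent and 7.19 kb for independent members.

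The consensus letters of the 2 PRDM9 alleles were found at few peaks. In the 300 bases around the centre, 160 dependent members (4.52%) held the Hum consensus, against 5.03% of all dependent peaks of the 18 autosomes, and 1.50% of windows 5 kb to the side of the members did. The Cast consensus was found at 207 (5.85%), against 6.01% of all dependent peaks and 3.25% of the side windows. Independent members held them at 3.97 and 4.14%. By autosome, the share for Hum was 4.34 ± 1.57% in the region and 5.06 ± 0.479% in the rest, and for Cast 5.82 ± 2.12% and 6.08 ± 0.584%, a gap smaller than the spread in the region for both. Sites with other letters at these positions were not counted.

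Gene starts in the region carried PRDM9-independent H3K4me3 at a share near that of all autosomes. Of 1420 protein-coding genes with a start there, 989 (69.6%) had an independent peak within 1 kb of an annotated start, against 69.9% of all such genes of the 18 autosomes. The median enrichment of the strongest of these peaks per gene was 40.5, against 42.3 in the rest. A dependent peak lay that close to 104 of the genes (7.32%), against 7.6% over all.

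The 5 independent members with the highest ChIP coverage all lay close to starts of widely used genes. They were at Sub1 on chromosome 15, a transcription cofactor, with 3660 and 3736 fragments against 33 in the input, and at Sart1, a splicing factor gene on chromosome 19, with 3595 and 3434 against 33. Next came Hnrnpul2 on chromosome 19, an RNA-binding protein gene, with 3622 and 3399 against 27, and Gspt1 on chromosome 16, a translation termination factor, with 3261 and 3284 against 35. The last was Pacs1 on chromosome 19, a sorting protein gene, with 3135 and 3138 against 27. Their distances to the start ran from 0.253 kb at Sart1 to 1.30 kb at Sub1, and enrichment was between 87.9 and 122.

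Among genes of meiosis and germ cells, 31 of 34 listed members in the region had an independent peak within 1 kb of a start and 0 a dependent one, against 69.9 and 7.6% over all protein-coding genes, with a median enrichment of 55.9. Mybl1 on chromosome 1, the transcription factor that drives much of the pachytene programme, had 1779 and 2013 ChIP fragments against 25 in the input and an enrichment of 71.3. Suv39h2 on chromosome 2, a histone H3 lysine 9 methyltransferase of the testis, stood at 73.3, with 2187 and 2180 fragments against 28. Tesmin on chromosome 19 was highest of the list at 104, with 2367 and 2262 against 21.

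Genes of the break response and of recombination were among them. Rad1 on chromosome 15 stood at 101, Hus1 on chromosome 11 at 89.6 and Rad9a on chromosome 19 at 48.5, which are the subunits of the checkpoint clamp. Hormad2 on chromosome 11, a protein of the unsynapsed chromosome axis, was at 54.0. The protamine gene Prm1 on chromosome 16, which packs sperm DNA, was lower, at 14.6. No peak was listed within 1 kb of the starts of Tnp2, Mos or Slx4.

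Regulators of chromatin and genes of basic cell functions had independent peaks throughout. All 18 chromatin regulators in the region had an independent peak, against 69.9% over all protein-coding genes, with a median enrichment of 71.0. Trim28 on chromosome 7, the KRAB zinc-finger corepressor, stood at 119, Taf3 on chromosome 2, a TFIID subunit that reads H3K4me3, at 98.4, and Dnmt3a on chromosome 12, a DNA methyltransferase, at 585, the last over 1 input fragment. Suv39h2 is on this list too, and Sfmbt2 on this one and that of imprinted genes. All 26 housekeeping genes had one as well, with a median of 71.7, including Rpl37 at 156 and Upf2 at 106.

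Of 19 developmental transcription factors, 18 had an independent peak, against 69.9% over all protein-coding genes, with a lower median of 20.8. Plag1 on chromosome 4 stood at 114, Gata3 on chromosome 2 at 12.5, Sox17 on chromosome 1 at 24.4 and Esr1 on chromosome 10, the oestrogen receptor, at 6.35, while Pgr had none. Genes of other tissues had an independent peak at 4 of 15 and a dependent one at 4, against 69.9 and 7.6% over all protein-coding genes. The independent peaks had a median of 3.64. Actn2 was at 17.1, Tnni3, the cardiac troponin, at 4.18 and Tnnt1 at 0.737, and 4 genes, Apob, Pomc, Oprm1 and Oprk1, had a dependent peak within 1 kb of a start instead. These lists and their members were picked with results of these data known, and their medians are a description.

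Imprinted genes had an independent peak at 6 of 10 and a dependent one at 3, against 69.9 and 7.6% over all protein-coding genes. Grb10 on chromosome 11 stood at 36.6 and Sfmbt2 on chromosome 2 at 44.3, and Peg10 and Sgce on chromosome 6, which share a start region, had the same peak at 29.6. Peg3 had no peak within 1 kb, Usp29 beside it had a dependent one, and Zim1 had both, its independent peak at 4.42.

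Vomeronasal receptor genes, which are expressed in sensory neurons of the nose and lie in large duplicated clusters, were the reverse. Of 33 Vmn1r and 29 Vmn2r genes with a start in the region, 0 had an independent peak within 1 kb, and 1 Vmn1r gene on chromosome 7 had a dependent one. The shares over all protein-coding genes were 69.9 and 7.6%. Chromosome 7 held 30 and 29 of them, between positions 5149670 and 12735004, which includes the 2 windows with 10.3 and 5.58% of words that occur once. Those 2 windows held starts of Vmn2r genes only. The Vmn1r starts of chromosome 7 lay in windows with 56.2 to 89.2% of such words. Where copies share sequence, a missing peak cannot be told apart from reads that were not placed. In the rest of the autosomes, 2 of 161 Vmn1r and 1 of 60 Vmn2r genes had an independent peak.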

How the data were processed

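H3K4me3 ChIP-seq was done on whole adult testis, with 2 ChIP libraries and 1 input library. BWA, SAMtools and bedtools are the tools, and mm10 the build, in the submitters' processing notes. The authors called narrow peaks on both ChIP libraries together at a p-value threshold of 1e-06, and the deposited p-value of each peak comes from their likelihood ratio test. The deposited counts are whole fragments that cover the peak centre in each library, with no normalization for depth. The deposited enrichment is the authors' ratio of excess signal to local background, with 0 for no enrichment, and is imprecise at low input. For broad peaks and PRDM9-independent regions the authors deposited positions without values.

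Each narrow peak was called dependent if its centre lay in no PRDM9-independent region. Each broad peak was called dependent if it overlapped no such region by 1 bp or more. Density was peaks per Mb of non-N sequence of GRCm38. For each of the 18 autosomes the first 10 Mb was compared with the rest, and differences were tested by an exact sign-flip permutation test, two-sided, over all 262144 sign patterns, with Benjamini-Hochberg adjustment over 9 tests. The autosome is the unit, so no p refers to animals. The test was checked on simulated peaks, with the same fold change on every autosome. That check did not cover the spread between autosomes seen in the data. Words of 51 bases were sampled every 1000 bases in the region and every 10000 in the rest, and counted on both strands of the genome. Genes came from GENCODE vM21, and 34 of 35 listed meiosis genes matched. Peaks named were the 8 dependent ones with the highest enrichment at 3 or more input fragments and both replicates above input, the 3 highest at any input, and the 5 independent ones with the most ChIP fragments. Genes named were members of the gene lists with a start in the region, with values for 3 to 8 of a list where it held them. Consensus letters came from the study's binding matrices at a share of 0.7 or more. The members, lists and tests were chosen with earlier results of these data known. The calculations used Python 3.11.15 with numpy 2.4.6, pandas 2.3.3 and scipy 1.17.1.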

Additional observations from a re-analysis of the deposited data

How the results depend on the processing

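The density, distal-end, broad-peak density and broad-peak width results of the dependent class kept their direction under every alternative tried for each. They also stayed past the threshold of the exact sign-flip test. Beside leaving out autosomes, there were 17, 13, 8 and 7 such settings in the same order. The settings with GC were run for narrow-peak density and the class difference only, not for the distal-end or broad-peak results. The log2 ratio of dependent density ranged from −0.51 with 3 or more input fragments to −0.19 with GC and words that occur once. Leaving out each autosome in turn gave −0.47 to −0.38 for dependent density, −0.43 to −0.30 for independent density, −0.12 to −0.03 for the class difference, −0.063 to 0.0031 for dependent enrichment, −0.046 to 0.067 for independent enrichment, −0.16 to −0.10 for input coverage, −0.85 to −0.75 against the distal end, −0.43 to −0.33 for broad density and −0.18 to −0.15 for broad width. Independent density was no longer past the threshold with a 5 Mb window (−0.21), per length of words that occur once (−0.23) and with GC (−0.038), and turned to 0.044 with GC and such words. The class difference passed it with GC (−0.24) and with GC and such words (−0.23). Without replicate 1 or replicate 2, dependent density was −0.46 and −0.47, dependent enrichment −0.047 and −0.038, and independent enrichment −0.0073 and −0.016. The peaks in these settings were still those called on both libraries. Density counted the peaks with the kept library above the input. Enrichment was the log2 ratio of the kept library's fragments to input fragments, both plus 1, in place of the authors' estimate.

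Values near 0 changed sign. Dependent enrichment was 0.0071 with a 20 Mb window, 0.018 without the first megabase, 0.0040 at a peak p under 1e-10 and 0.021 without very high input. It passed the threshold with 3 or more input fragments (−0.077) and without chromosome 14 (−0.063). Independent enrichment was −0.013 without the first megabase, −0.0042 with chromosome 17, −0.042 with 3 or more input fragments and −0.032 with means for medians. Input coverage was 0.017 with means, and passed the threshold without the first megabase (−0.16), without very high input (−0.16) and at words that occur once (−0.12), and also without chromosome 8 (−0.16, exact sign-flip p = 0.0273) or chromosome 19 (−0.16, p = 0.0117). The cause of these changes was not tested. ChIP and input libraries could not be paired, because the groups share only 1 replicate number. The tests over autosomes were paired within the autosome. Dependent peaks rest on a median of 14 to 18 ChIP and 6 input fragments, which limits the precision of single peaks.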
